A study of Caenorhabditis elegans with 9 samples.

Results

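The F-box B (*fbxb*) and F-box C (*fbxc*) genes are 2 large families of *C. elegans* genes, and 142 probe sets of the array that name 1 gene only, with a symbol starting *fbxb-* or *fbxc-*, were taken as their measure. They stood for 139 genes, 95 *fbxb* (96 probe sets) and 44 *fbxc* (46 probe sets), of 17118 genes and 20766 single-gene probe sets in all. RNA of L1 larvae was hybridized to Affymetrix arrays in 3 groups of 3 biological replicates. The larvae were wild type, of the N2 Bristol strain, in every group, and all of them and their parents fed on HT115 bacteria that expressed a double-stranded RNA. The parents were placed on these bacteria as L4 animals at 25 °C, their eggs hatched without food, and the hatched larvae fed for 3 h. The dsRNA was *gfp* in the control group (*gfp(RNAi)*), *let-418*, which encodes a Mi-2 chromatin remodelling ATPase, in the second, and *mep-1*, which encodes its zinc-finger partner, in the third. The signal of *let-418* was 1595, 1479 and 2276 in larvae labelled *let-418(RNAi)* and 815, 1012 and 917 on the *gfp(RNAi)* arrays, and that of *mep-1* differed by 0.07 on the log2 scale in larvae labelled *mep-1(RNAi)* (adjusted p = 0.777 from limma). The arrays therefore give no sign of a lower targeted mRNA, and the groups are called by their labels.

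An F-box protein carries a short domain that binds a Skp1-related adaptor, and through it a cullin and a RING protein, which together form an SCF ubiquitin ligase. The rest of the F-box protein holds the substrate that is to be ubiquitylated, so the F-box protein gives the ligase its specificity. The *C. elegans* genome holds a very large number of such genes, many of them in clusters of close relatives, and most *fbxb* and *fbxc* genes have no described function.

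The families lay mostly in one part of the genome. By the WBcel235 annotation of RefSeq, which was used for chromosomes, gene order and gene type, 91 of the 142 probe sets were for genes of chromosome II, 14 each for chromosomes IV and V, 11 for chromosome I, 8 for chromosome III and 4 for chromosome X. Of the 139 genes, 74 had another *fbxb* or *fbxc* gene right beside them, and 12 were annotated as pseudogenes. The annotation lists 169 *fbxb* and *fbxc* genes, and the 30 without a probe set of their own were not analysed here. A further 6 probe sets name several genes and were left out of the members. Of the 142, 17 carry the suffix s_at or x_at, by which the array's maker marks probe sets that can match more than 1 transcript.

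Most of the 2 families gave signals near the floor of the array. The signals are MAS5 values, a linear brightness for each probe set, scaled so that all 9 arrays had the same trimmed mean. On all 9 arrays 133 of the 142 probe sets (93.7%) stayed under the array's median, against 42.5% of all 22548 probe sets, and 69 stayed under the 25th percentile on every array. By the mean of the log2 signals over all arrays, 109 probe sets (76.8%) fell in the dimmest 25% of the array, 85 of 96 for *fbxb* and 24 of 46 for *fbxc*. The median of the mean signals in *gfp(RNAi)* larvae was 9.84 for *fbxb* and 21.8 for *fbxc*, beside 96.8 for all probe sets. A signal of one probe set was not set against that of another as a measure of RNA abundance.

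The brightest member was *fbxc-58*, with signals of 443, 524 and 982 on the *gfp(RNAi)* arrays, 671, 838 and 582 in larvae labelled *let-418(RNAi)* and 657, 381 and 818 in those labelled *mep-1(RNAi)*. The 3 groups overlapped. *fbxc-54* had signals of 154, 200 and 223, then 178, 165 and 199, then 161, 165 and 235 in the same order of groups. These 2 probe sets alone were above the median of the array on all 9 arrays. *fbxc-52* (mean 93.5 ± 8.20, SD, n = 3, in *gfp(RNAi)*) and *fbxc-36* (86.3 ± 13.6, n = 3) came next. At the other end, *fbxb-22* had signals of 0.397, 0.243 and 0.249 and *fbxb-84* of 0.940, 0.401 and 0.374 on the *gfp(RNAi)* arrays.

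Few of the members were called. Calls required at least a 2-fold change and an adjusted p under 0.05 in limma, which was fitted over all 22548 probe sets. In larvae labelled *let-418(RNAi)*, 6 of 142 were called higher (4.23%, where 6.54% of all probe sets were) and 1 lower (0.704%, against 2.75%). In larvae labelled *mep-1(RNAi)*, 5 were called higher (3.52%, against 6.78% of all) and 4 lower (2.82%, against 3.3%). In all 11 probe sets were called in at least 1 comparison and 131 in neither, and 0 passed the adjusted p while short of 2-fold (18 and 16 members had an unadjusted p under 0.05 in the 2 comparisons, 12.7% and 11.3%, against 27.8% and 29.7% of all probe sets, and both comparisons share the *gfp(RNAi)* arrays). The median log2 fold change of the members was -0.25 and -0.05, beside -0.03 and 0.02 over all probe sets. RNA came from whole larvae, so fewer cells of a type and less RNA per cell cannot be told apart.

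**Figure D1:**
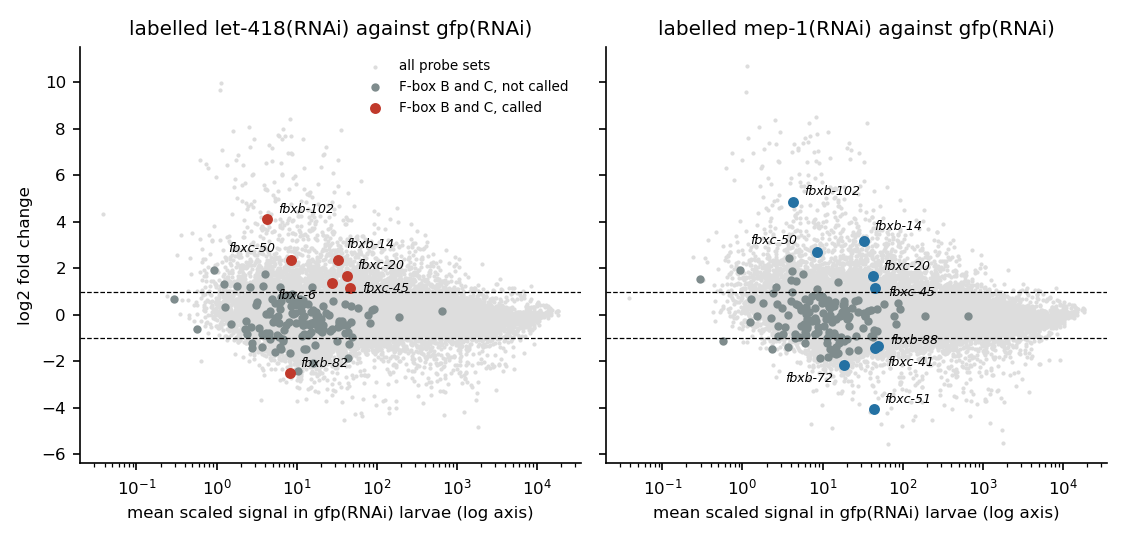
Log2 fold change against *gfp(RNAi)* (vertical axis) by the mean scaled signal in *gfp(RNAi)* larvae (horizontal log axis), for larvae labelled *let-418(RNAi)* (left) and *mep-1(RNAi)* (right), with all 22548 probe sets in light grey, the uncalled F-box B and C probe sets in dark grey, the called ones in colour and dashed lines at 2-fold. The members lie in the dim part of the array, and 7 on the left and 9 on the right were called.

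*fbxb-102* had the highest fitted log2 fold change of the members called higher in both comparisons, from control signals near the floor. Its signal was 2.92, 2.80 and 7.21 on the *gfp(RNAi)* arrays, 75.4, 58.9 and 70.5 in those labelled *let-418(RNAi)* and 87.99, 84.2 and 199 in those labelled *mep-1(RNAi)*. All 6 arrays of the RNAi groups were above all 3 controls, by 4.13 (standard error 0.46, adjusted p = 8.55e-05 from limma) and 4.87 (adjusted p = 2.11e-05) on the log2 scale, or 17.5-fold and 29.3-fold. The control signals were under the 25th percentile of their arrays, and after 21.1 was added to every signal the changes were 1.81 and 2.43, both still called, beside 1.74 and 2.51 for *fbxb-14*, so that the order of these members turned in larvae labelled *mep-1(RNAi)*.

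*fbxb-14* had signals of 38.7, 43.3 and 17.1 in *gfp(RNAi)* larvae, 139, 157.9 and 168 in larvae labelled *let-418(RNAi)* and 275, 229 and 348 in those labelled *mep-1(RNAi)*. The 3 groups did not overlap, and the rises were 2.34 (standard error 0.32, adjusted p = 0.000443 from limma) and 3.196 (adjusted p = 3.85e-05) on the log2 scale. The difference between the RNAi groups, 0.86, had an adjusted p of 0.820 from limma, with an interval from 0.15 to 1.57 that is not adjusted for the number of tests. *fbxb-102* and *fbxb-14* were the only *fbxb* probe sets called higher.

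The other members called higher were *fbxc* genes. *fbxc-20* had signals of 44.8, 47.8 and 33.8 in the controls, 136, 134 and 134 in larvae labelled *let-418(RNAi)* and 93.8, 123 and 195 in those labelled *mep-1(RNAi)*. Both groups were above the controls, by 1.69 (standard error 0.27, adjusted p = 0.00139 from limma) and 1.65 (adjusted p = 0.00154) on the log2 scale. *fbxc-45*, on chromosome IV, rose from 32.5, 59.7 and 44.8 to 98.2, 95.1 and 104.04 and to 99.0, 80.3 and 124. Its rises, 1.16 (adjusted p = 0.0129 from limma) and 1.17 (adjusted p = 0.0119), were the smallest among the members called higher, and without *gfp(RNAi)* replicate 1 they were 0.94 and 0.94 and no longer reached 2-fold. Both calls were also lost with unscaled signals (adjusted p = 0.177 and 0.249 from limma), with 21.1 added (0.87 and 0.87) and with the methods' t-test.

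*fbxc-50* has 2 probe sets that disagreed. The dimmer one, of the s_at kind, had signals of 11.6, 6.24 and 7.57 in the controls, 39.3, 42.1 and 42.8 with *let-418* dsRNA by label and 62.2, 78.7 and 30.9 with *mep-1* dsRNA. It was called higher in both comparisons by limma, with a rise of 2.34 (adjusted p = 0.00249) and one of 2.70 (adjusted p = 0.00087) in log2 units. The brighter probe set, which stands for the gene by the rule for genes with several, had 38.7, 36.4 and 25.9, then 25.7, 23.4 and 36.9, then 44.9, 27.3 and 25.9, and its changes of -0.24 (95% interval -1.02 to 0.54) and -0.07 (-0.85 to 0.71) were not called. Averaged over both probe sets, the gene's change was 1.05 (adjusted p = 0.0672 from limma) and 1.32 (adjusted p = 0.0236).

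*fbxc-6*, annotated as a pseudogene, was called higher in larvae labelled *let-418(RNAi)* only. Its signals were 20.4, 35.1 and 26.3 in the controls, 68.1, 73.0 and 68.6 on those arrays and 27.8, 55.2 and 45.4 in larvae labelled *mep-1(RNAi)*. The *let-418(RNAi)* group was above both others, while the *mep-1(RNAi)* group overlapped the controls. The changes were 1.39 (adjusted p = 0.0147 from limma) and 0.63 (adjusted p = 0.237), and their difference of -0.76 did not pass the test (adjusted p = 0.871). Without *let-418(RNAi)* replicate 2 the first had an adjusted p of 0.0514, with unscaled signals it had one of 0.0937, and with 21.1 added the change was 0.92, under 2-fold.

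**Figure D2:**
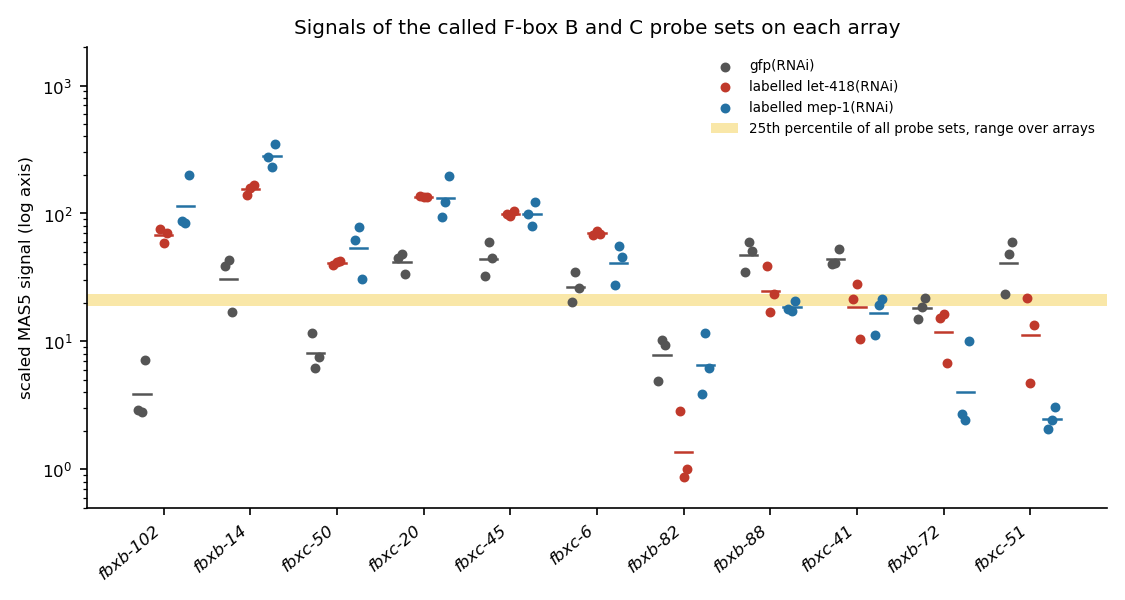
Scaled MAS5 signal (log axis) of the 11 called F-box B and C probe sets on each of the 9 arrays, with points for arrays, short lines for the geometric mean of each group of 3 and a band for the range of the 25th percentile of all probe sets over the arrays. *fbxb-102* rose from 2.80 to 7.21 in the controls to between 84.2 and 199 in larvae labelled *mep-1(RNAi)*, and *fbxc-51* fell from between 23.5 and 60.1 to between 2.05 and 3.08 there.

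Among the members called lower, *fbxc-51* had the largest change. On 1 of its 2 probe sets the signals were 23.5, 47.9 and 60.1 in the controls, 21.7, 4.74 and 13.5 in larvae labelled *let-418(RNAi)* and 2.05, 2.42 and 3.08 in those labelled *mep-1(RNAi)*. The *mep-1(RNAi)* arrays were below all others, with a log2 fold change of -4.04 (adjusted p = 0.000881 from limma, standard error 0.62), or -1.41 with that value added. In larvae labelled *let-418(RNAi)* the change was -1.87 (adjusted p = 0.0655), and among the leave-outs of single arrays it was called only without *let-418(RNAi)* replicate 1. The brighter probe set, of the x_at kind, which stands for the gene, had 26.1, 29.3 and 23.3, then 15.9, 19.2 and 13.6, then 7.90, 20.9 and 16.6, and its changes of -0.70 and -0.90 were not called (adjusted p = 0.335 and 0.193 from limma), although neither group overlapped the controls.

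The other falls were near the threshold, and each was lost with the replicate block (the label's batch number as a term in the fit). *fbxb-88* had signals of 34.6, 60.2 and 50.8 in the controls and 17.9, 17.3 and 20.7 in larvae labelled *mep-1(RNAi)* (-1.35, adjusted p = 0.0336 from limma, and 0.0544 with the block). *fbxb-72* had 15.0, 18.5 and 21.9 and then 2.71, 2.43 and 10.1 (-2.17, adjusted p = 0.0355, and 0.0561 with the block). In both genes the groups did not overlap, and both are measured by s_at probe sets. *fbxc-41*, a pseudogene by the annotation, had 40.4, 40.9 and 52.5 and then 11.3, 19.3 and 21.4 (-1.41, adjusted p = 0.0496, and 0.0677 with the block). With *let-418(RNAi)*, *fbxb-88* and *fbxc-41* had an unadjusted p under 0.05 from limma but were not called, and *fbxb-72* did not reach this. All signals of *fbxc-41* were below the controls there too. None of these genes was called between the RNAi groups.

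*fbxb-82* was the 1 member called lower in larvae labelled *let-418(RNAi)*. Its signals there were 2.88, 0.871 and 1.01, below the 4.89, 10.3 and 9.42 of the controls, a change of -2.52 (adjusted p = 0.0332 from limma, and 0.0559 with the block). All 9 of its signals were under the 25th percentile of their arrays, and with that value added the change was -0.36 and not called. In larvae labelled *mep-1(RNAi)* the signals were 3.89, 11.7 and 6.14 and overlapped the controls. With each of the 9 arrays left out in turn, the calls of *fbxb-82*, *fbxb-88*, *fbxb-72* and *fbxc-41* held in 5, 4, 3 and 2 cases.

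Signals that did not overlap between groups were also less frequent among the members than on the whole array. In larvae labelled *let-418(RNAi)*, all 3 signals were above all 3 controls for 12 members (8.45%), where 17.9% of all probe sets did this, and below them for 13 (9.15%, against 15.9%). With *mep-1(RNAi)* the numbers were 11 above (7.75%, against 18.6%) and 12 below (8.45%, against 15.1%). These shares are a description, and the spread within groups was larger for the members. Its median, as an SD of log2 signals, was 0.90 for the members and 0.33 for all probe sets, and the median standard error of a log2 fold change was 0.73 and 0.28.

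The precision limits what the uncalled members show. The 95% interval of a log2 fold change reached a median of 1.81 to each side for the 109 members in the dimmest 25%, a factor of 3.52, so a change of 2-fold lay inside the error of a typical member. For none of these 109 did the interval of either comparison stay within 2-fold in both directions. The 33 members above that range had a median reach of 0.77, and the mean signal that sorted them includes the arrays on which a member was high. Of these 33, 18.2% were called with *let-418(RNAi)* and 21.2% with *mep-1(RNAi)*, against 9.30% and 10.1% of all probe sets, dim ones included. The sorting affects these shares, and they were not tested. Of all 142, the interval stayed within 2-fold for 10 in larvae labelled *let-418(RNAi)* (7.04%, against 43.5% of all probe sets) and for 13 in those labelled *mep-1(RNAi)* (9.15%, against 42.8%).

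Changes of 2-fold or more lay outside the intervals of both comparisons for 7 members, *fbxc-58*, *fbxc-54*, *fbxc-52*, *fbxc-33*, *fbxc-40*, *fbxc-43* and *fbxb-36*. Smaller changes stay possible, and in both comparisons the signals of *fbxc-40* were all below the controls and those of *fbxc-43* all above. A left-out probe set that names *fbxc-40* together with *K02E7.7* had wider intervals, -1.55 to 0.32 and -1.33 to 0.54. For *fbxc-58* the changes were 0.17 (95% interval -0.53 to 0.88) and -0.05 (-0.75 to 0.65), and for *fbxc-54* they were -0.08 (-0.53 to 0.37) and -0.04 (-0.49 to 0.41). *fbxc-52* changed by 0.27 (-0.19 to 0.72) and 0.26 (-0.19 to 0.72). *fbxc-36* came close to this limit, with 0.51 (-0.07 to 1.09) in larvae labelled *mep-1(RNAi)*, where its 3 signals of 99.7, 99.2 and 184 were above the 71.1, 90.2 and 97.4 of the controls.

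**Figure D3:**
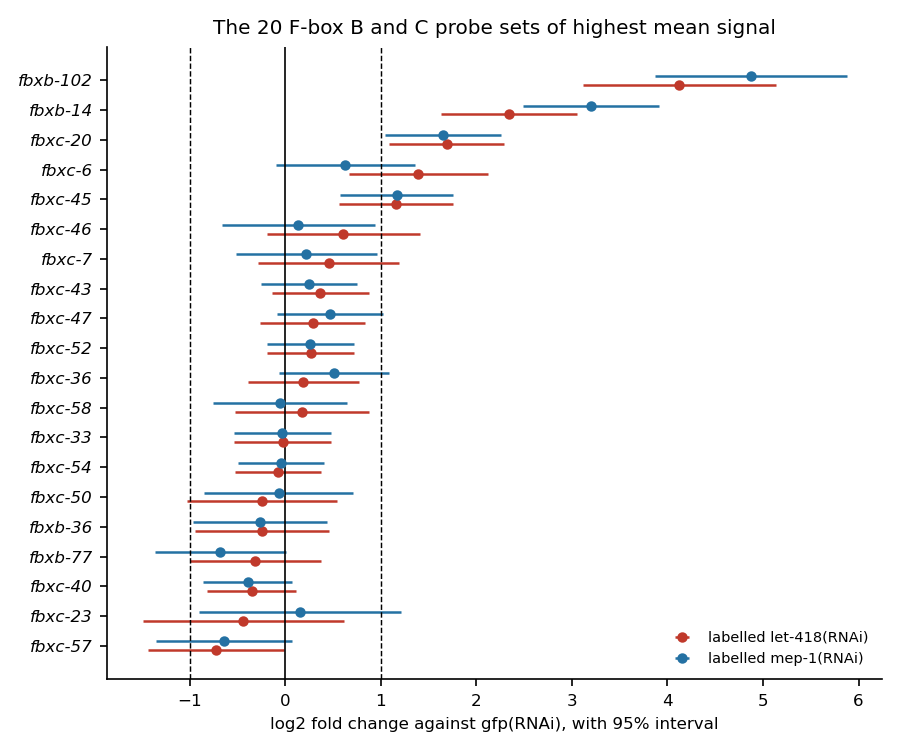
Log2 fold change against *gfp(RNAi)* with its 95% interval (horizontal axis) for the 20 F-box B and C probe sets with the highest mean log2 signal over all 9 arrays, in red for larvae labelled *let-418(RNAi)* and blue for *mep-1(RNAi)*, with dashed lines at 2-fold. *fbxb-102*, *fbxb-14*, *fbxc-20* and *fbxc-45* lie to the right in both comparisons, and the intervals of 7 members stay between the dashed lines in both. The mean that sorted the probe sets includes the RNAi arrays, and *fbxb-102* had control signals near the floor.

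The RNAi groups were also compared with each other. Of the members 0 were called (limma), where 1 of 22548 probe sets was (0.00443%). An unadjusted p under 0.05 was reached by 14 members (9.86%, against 5.61% of all probe sets), and the methods' t-test called 2, *fbxb-111* and *fbxb-115* (1.41%, against 0.368% of all). The largest differences were those of *fbxb-115*, with signals of 1.45, 2.05 and 1.99 in larvae labelled *let-418(RNAi)* and 19.03, 5.78 and 14.4 in those labelled *mep-1(RNAi)* (2.69, adjusted p = 0.665 from limma), and of *fbxb-55*, with 1.10, 12.5 and 1.58 against 23.0, 19.97 and 10.7 (2.61, adjusted p = 0.795). Both were under the 25th percentile on all 9 arrays, and the interval of the first ran from 1.01 to 4.37.

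Called members did not form a block on chromosome II. In the order of the genes, called *fbxb-14* stood near one end and *fbxb-102* near the other, and the members between them were mostly uncalled. *fbxb-34*, 2 genes from *fbxb-14*, changed by -0.03 and 0.28 and was not called. The pseudogenes *fbxc-41* and *fbxc-6* are 3 genes apart, with *fbxc-57* and *fbxc-7* between them. *fbxc-41* was called lower in larvae labelled *mep-1(RNAi)* and *fbxc-6* higher in those labelled *let-418(RNAi)*. The signals of *fbxc-41* with *let-418(RNAi)* were also all below the controls, without a call. The genes between them had -0.72 and -0.64 (*fbxc-57*) and 0.46 and 0.22 (*fbxc-7*) and were not called. On chromosome III the neighbours *fbxb-81* and *fbxb-83* of *fbxb-82* changed by 0.43 and -1.48 in larvae labelled *let-418(RNAi)* and were not called.

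**Figure D4:**
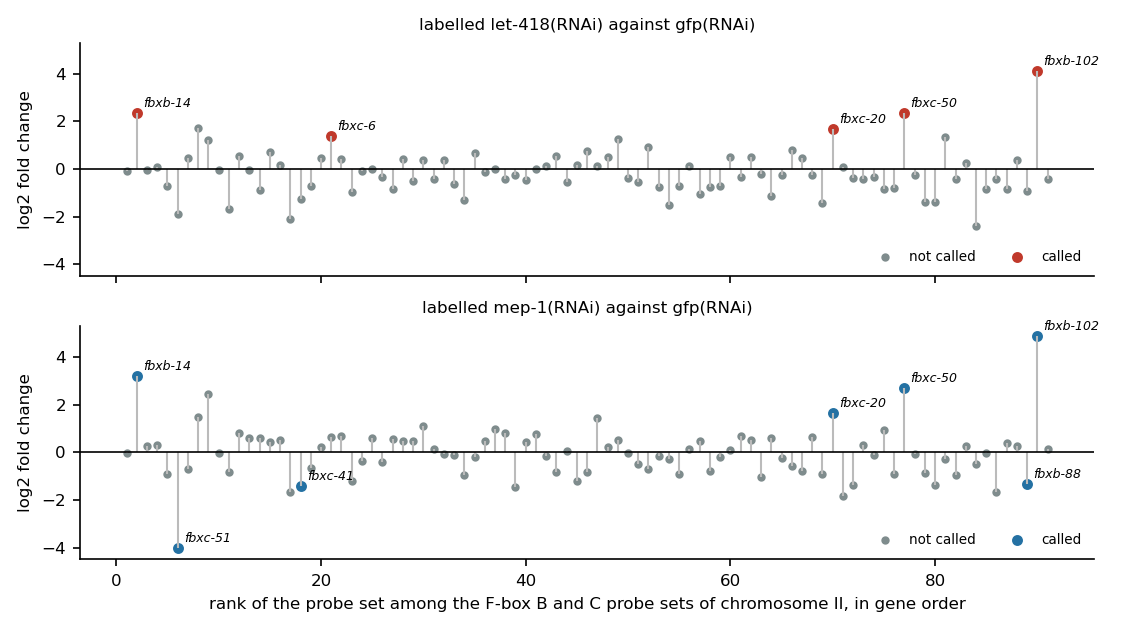
Log2 fold change against *gfp(RNAi)* of the 91 F-box B and C probe sets of chromosome II, by their rank in gene order (horizontal axis), for larvae labelled *let-418(RNAi)* (top) and *mep-1(RNAi)* (bottom), with called probe sets in colour. The called members are spread along the order and stand beside uncalled ones.

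Some called members had called neighbours outside the families. The gene beside *fbxb-102* is *arrd-9*, which encodes an arrestin-domain protein, and its log2 fold changes were 3.62 and 4.45 (adjusted p = 5.73e-05 and 9.9e-06 from limma). The next gene, *chil-28*, which encodes a chitinase-like protein, rose by 1.90 and 3.46 (adjusted p = 0.0435 and 0.00144). On the other side of *fbxb-102*, *F15A4.10* changed by 0.72 and 0.85 and was not called. *F42G2.5*, 2 genes from *fbxc-20*, rose by 2.40 and 2.71, and *gcy-19*, a guanylate cyclase gene 3 genes from *fbxc-50*, by 1.97 and 1.52. Among the 328 measured genes within 3 genes of a member that were no members themselves, 36 were called higher and 5 lower in larvae labelled *let-418(RNAi)* (10.98% and 1.52%), and 37 and 7 in those labelled *mep-1(RNAi)* (11.3% and 2.13%). Over all genes the shares were 7.10% and 2.90%, then 7.25% and 3.38%, and the difference was not tested.

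The *fbxa*, *math* and *bath* families had larger shares of their probe sets called. Of 175 *fbxa* probe sets, which are for another family of F-box genes, 59 were called higher and 3 lower in larvae labelled *let-418(RNAi)*, and 54 and 4 in those labelled *mep-1(RNAi)*. The *math* genes encode proteins with a MATH domain and the *bath* genes proteins that add a BTB domain, which binds a cullin directly. Of 49 *math* probe sets 22 and 23 were called higher and 1 lower in each comparison, and of 42 *bath* probe sets 10 and 12 were called higher and 0 lower. The share called was 4.93% and 6.34% for *fbxb* and *fbxc* together, 35.4% and 33.1% for *fbxa*, 46.9% and 49.0% for *math* and 23.8% and 28.6% for *bath*. These shares have no test, and fewer probe sets of the other families were in the dimmest 25% of the array, 32.6% for *fbxa*, 42.9% for *math* and 40.5% for *bath* against 76.8% here. The part of dimness in the difference was not tested.

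**Figure D5:**
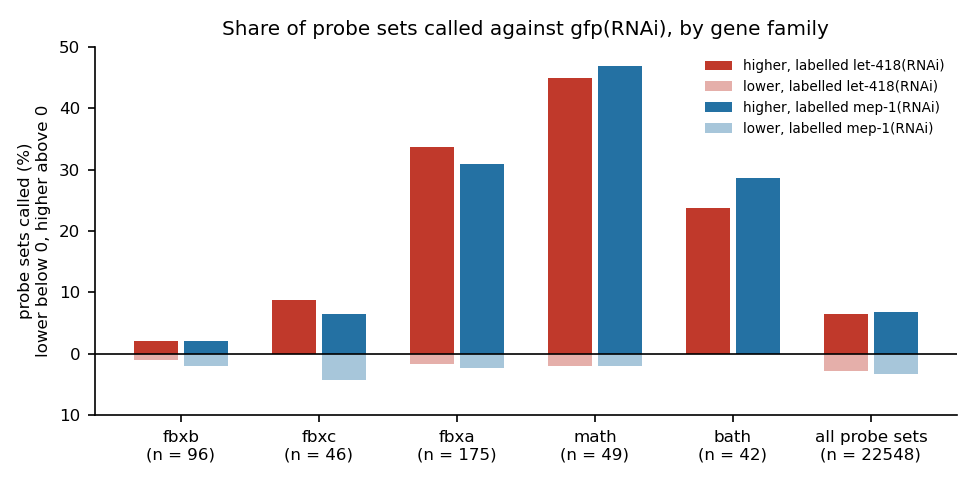
Share of probe sets called higher (above 0) and lower (below 0) against *gfp(RNAi)*, in percent, for 5 gene families and for all 22548 probe sets. Red stands for larvae labelled *let-418(RNAi)* and blue for *mep-1(RNAi)*. For *fbxb* and *fbxc* together 4.93% and 6.34% were called in either direction, and for *fbxa* 35.4% and 33.1%.

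In the core of the ligases, calls fell on cullin, Skp1-related adaptor and NEDD8 attachment genes. Over all genes, 7.10% were called higher and 2.90% lower with *let-418(RNAi)*, and 7.25% and 3.38% with *mep-1(RNAi)*. The lists were not tested against these shares. Of 6 cullin genes only *cul-6* was called, with rises of 1.45 and 2.00 on the log2 scale, while *cul-1*, the cullin of the general SCF ligase, changed by 0.43 and 0.49 (adjusted p = 0.0826 and 0.0441 from limma) and did not reach 2-fold. Of 19 measured Skp1-related adaptor genes, 4 were called higher and 1 lower in larvae labelled *let-418(RNAi)* and 3 higher and 0 lower in those labelled *mep-1(RNAi)*. The rises were largest for *skr-4* (4.69 and 4.66) and *skr-5* (4.69 and 4.14), *skr-2* was also called in both (1.08 and 1.24), and *skr-10* was the one that fell (-2.36, adjusted p = 0.0187 from limma). The RING genes *rbx-1* and *rbx-2* and the 6 measured genes of the COP9 signalosome, which takes NEDD8 off cullins, had 0 calls in both comparisons, as had the 4 measured genes for ubiquitin, its activation and transfer. Of 5 genes for NEDD8 attachment and cullin exchange, *ula-1*, a subunit of the NEDD8-activating enzyme, was called higher (1.05 and 1.17). Short of 2-fold, the NEDD8 gene *rfl-1* (0.74 and 0.99) and the COP9 gene *csn-5* (0.79 and 0.90) passed the adjusted p in both comparisons. So did *csn-4* (-0.59) of the COP9 list with *let-418(RNAi)* and *uba-1* (0.57), for ubiquitin activation, with *mep-1(RNAi)*.

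Among 7 F-box genes with well-described roles, *fog-2*, which acts in germline sex determination of hermaphrodites, was called higher (2.19 and 2.11) and the other 6, *lin-23*, *sel-10*, *fsn-1*, *dre-1*, *mfb-1* and *fbxl-1*, were not. Of these 6, *fbxl-1* (0.78 and 0.73) in both comparisons and *mfb-1* (0.58) with *let-418(RNAi)* passed the adjusted p short of 2-fold. A list of 7 genes for a ubiquitin ligase of the response to intracellular pathogens (*cul-6*, *skr-3*, *skr-4*, *skr-5*, *fbxa-75*, *fbxa-158* and *fbxa-182*) had 7 called higher with *let-418(RNAi)* and 6 with *mep-1(RNAi)*, where *skr-3* changed by 1.00 and fell just short of 2-fold. The list was chosen with results of these data known, and it holds no *fbxb* or *fbxc* gene. Over all 17118 genes, 1215 were called higher and 496 lower in the first comparison and 1241 and 578 in the second.

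Of the cell type markers, only the germline list was called as a whole. All 11 germline markers were called higher in both comparisons, and their summed signal was 1109 to 1256 in *gfp(RNAi)* larvae, 8290 to 10838 in larvae labelled *let-418(RNAi)* and 11288 to 12952 in those labelled *mep-1(RNAi)*. Of 7 intestinal markers *elt-2* was called higher in both, of 7 neuronal markers *rab-3* was called lower with *mep-1(RNAi)*, and 0 of 7 epidermal, 6 muscle and 5 pharyngeal markers were called. Most other intestinal markers had values below the controls, with list medians of -0.50 and -0.31, and *ges-1* (-0.67 and -0.82, adjusted p = 0.0203 and 0.00623 from limma) passed the adjusted p short of 2-fold, as did *act-5* (-0.50) and *pgp-1* (-0.75) in larvae labelled *let-418(RNAi)*. The pharyngeal medians were -0.62 and -0.66. *myo-1* (-0.97 and -0.93, adjusted p = 0.0109 and 0.0129 from limma) also passed the adjusted p short of 2-fold, as did *tnc-2* (-0.79) with *mep-1(RNAi)*. *pha-4* went the other way, with 0.59 (adjusted p = 0.0346 from limma) in larvae labelled *let-418(RNAi)* and 0.46 (adjusted p = 0.0876) in those labelled *mep-1(RNAi)*. Of the muscle list, *unc-89* (-0.62 and -0.71) passed the adjusted p in both comparisons short of 2-fold, as did *myo-3* (-0.57) with *mep-1(RNAi)*. Of the epidermal list, *elt-3* (0.52 and 0.62) did so in both. Of the neuronal list, *rab-3* (-0.88) did so with *let-418(RNAi)* and *unc-104* (-0.72) with *mep-1(RNAi)*. The lowest scaled signal on any array was 0.0249, so no marker was at 0. The part of the germline signal in the rises of *fbxb-102*, *fbxb-14*, *fbxc-20*, *fbxc-45*, *fbxc-50* and *fbxc-6* was not tested.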

How the data were processed

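Total RNA of L1 larvae was measured on 9 Affymetrix arrays. The authors summarised probe brightness with MAS5 and deposited 1 linear signal, an intensity, per probe set and array. All 9 columns were matched by label, and 0 were left unmatched. The methods describe a global scaling to a target intensity, yet trimmed means (2% left out at each end) differed between the deposited columns (209 to 436), so the arrays were scaled to their common value of 324, with factors of 0.743 to 1.55. The scaled signals were log2-transformed with no offset and fitted with limma 3.58.1 in R 4.3.3 (3 group means, 9 arrays, intensity trend, 2-sided, Benjamini-Hochberg over 22548 probe sets). Figures and summaries used Python 3.11.15, numpy 2.4.6, pandas 2.3.3 and matplotlib 3.10.9.

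Gene names came from the platform annotation, and all 142 members matched RefSeq. Named by rule are all called members, the 4 brightest and 2 dimmest in *gfp(RNAi)*, the 2 with the largest difference between RNAi groups, and at most 4 called genes of each ligase list. Neighbours of called members, members with narrow intervals, uncalled list genes, markers and members called by other settings were named outside it, after their values were seen, and the *fbxa*, *math* and *bath* families are given by counts. For a gene with several probe sets the one with the highest mean log2 signal stands for it. Members and lists were chosen with earlier results of these data known. The labels' batch numbers pair the arrays. Residual correlations were -0.03 to 0.10 for the 9 pairs of the same number and -0.14 to 0.10 for the 18 others. Alternatives were quantile normalization, unscaled signals, omission of the dimmest 25% of probe sets, 21.1 added to each signal, no trend, a fit to the 6 arrays of a comparison, the replicate block, each array left out, no fold limit, the methods' t-test (p of at most 0.01, at least 2-fold, also adjusted) and averaging of probe sets within a gene. A limit of 0.05 for the adjusted t-test was added after its counts at 0.01 were seen. With 3 arrays per group, their number limits the precision. Sequences and probe positions were not used here, and genome coordinates served only to put the genes in order.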

Additional observations from a re-analysis of the deposited data

Results flagged for a closer look

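One signal lay outside the members. A probe set that names *fbxc-8*, *fbxc-9*, *fbxc-10*, *fbxc-11* and *fbxc-12* together, and so could not be given to 1 gene, was above all controls in larvae labelled *mep-1(RNAi)*, with signals of 34.6, 33.8 and 33.2 against 14.4, 8.70 and 14.5, a log2 fold change of 1.47 (adjusted p = 0.0179 from limma). In larvae labelled *let-418(RNAi)* its change was 0.81 (adjusted p = 0.180). A second probe set that names the same 5 genes changed by 0.77 in larvae labelled *mep-1(RNAi)* (adjusted p = 0.196) and by 1.11 in those labelled *let-418(RNAi)* (adjusted p = 0.0709) and was not called.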

How the results depend on the processing

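The rises of *fbxb-102*, *fbxb-14* and *fbxc-20* kept their calls in both comparisons under the 9 alternatives tried for single members, which do not include the adjusted t-test, and with each array left out, and no called change turned direction. The fit without the dimmest 25% is no support for *fbxb-102* or for the called probe set of *fbxc-50*. Their control signals were under the 25th percentile of their arrays, and only their RNAi arrays carried them past that filter. With unscaled signals and with the offset, 4 members were called higher in each comparison, without *fbxc-45* and *fbxc-6*. In larvae labelled *let-418(RNAi)* the 1 member called lower became 0 with unscaled signals, the offset, the dimmest 25% left out, the replicate block and the methods' t-test, before adjustment and adjusted at 0.01 or 0.05. In larvae labelled *mep-1(RNAi)* the 4 called lower became 2 with unscaled signals, without the dimmest 25% and with the methods' t-test, and 1 with the offset and the replicate block. Without the dimmest 25%, *fbxb-82*, *fbxc-51* and *fbxb-72* were not in the fit, so these losses followed from the filter. The mean that sorted *fbxc-51* includes its own low arrays. Adjusted, the t-test called 0 higher in both comparisons and 0 lower in both at 0.01, and at 0.05, a limit added after the data were seen, 4 higher (without *fbxb-14*) and 0 lower with *let-418(RNAi)* and 2 higher (without *fbxc-20*) and 1 lower with *mep-1(RNAi)*. Between the RNAi groups the t-test called 2 members. With 1 array left out, members called higher numbered 5 to 6 in each comparison, those called lower 0 to 2 and 1 to 4, and those between the RNAi groups 0 to 0. Which members were called lower also changed. Without *mep-1(RNAi)* replicate 1 they were *fbxb-103*, *fbxb-107*, *fbxb-65* and *fbxc-51* in that group, and without replicate 2 *fbxb-114*, *fbxb-4* and *fbxc-51*. *fbxb-79* was called higher in both comparisons with no trend, and by the methods' t-test with *mep-1(RNAi)*. The causes were not tested. With the replicate block 6 members were called higher with *let-418(RNAi)* and 6 with *mep-1(RNAi)*, where *fbxb-101* was added, and besides this rise and the falls it ended the block changed no call of a member. The median of all probe sets moved to -0.10 and -0.27 with unscaled signals and to -0.08 and -0.07 with quantile normalization. Signals near the floor limit most members.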
